A study of Mus musculus with 9 samples.

Results

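Prg4, Pi15, Fgl2 and Ctla2a were 4 of the 22180 genes that had a symbol of their own on the array, and 4 of the 12630 genes tested. They were selected on the measured difference between stimulated cells with scrambled siRNA and vehicle cells, among whose largest rises they lay, so their rise over vehicle is described below without a test. Each gene had 1 probe set, which is the one used. The cells were 3T3-L1, an established mouse fibroblast line that turns into adipocytes when it is given an induction cocktail after growth arrest. The stimulus was 0.5 mM IBMX, a phosphodiesterase inhibitor that raises cAMP, with 1 µM dexamethasone (Dex), a synthetic glucocorticoid, for 6 h. The 9 arrays formed 3 groups of 3: cells given vehicle alone, cells given scrambled siRNA and then IBMX/Dex, and cells given siRNA against CD24 and then IBMX/Dex. All groups were confluent, growth-arrested pre-adipocytes. Transfection of the vehicle cells is not recorded, so IBMX/Dex and transfection cannot be told apart in a comparison with vehicle. Nor is it recorded that replicates came from separate cultures, so a p-value here reflects only how far these samples scatter, which may be technical. In whole-culture RNA, more expressing cells and more RNA per cell cannot be told apart.

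All 4 genes encode secreted or secretable proteins that act outside the cell or on proteases, but they belong to unrelated families. Prg4 makes lubricin, a long mucin-like proteoglycan that coats cartilage and synovium, acts as a boundary lubricant and binds the hyaluronan receptor CD44 and the Toll-like receptors TLR2 and TLR4. Pi15 makes a peptidase inhibitor of the CAP superfamily, a group of cysteine-rich secretory proteins, and was first known as a weak inhibitor of trypsin. Fgl2 makes a protein with a fibrinogen-like domain. Its membrane form can cleave prothrombin, and its soluble form, released by regulatory T cells, binds inhibitory Fc receptors. Ctla2a makes a small protein that resembles the propeptide of cathepsin L and inhibits cysteine proteases of that kind. It was found in activated lymphocytes and mast cells, next to a close copy, Ctla2b.

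Array medians lay between 6.47 and 6.56 on the log2 scale, and within a group any pair of arrays had a Pearson r of 0.963 to 0.990 (computed over probe sets, not over replicates). Markers of the labelled cell were present: of 11 fibroblast and pre-adipocyte markers on the array 10 passed the filter on low values (a log2 level of 6.51 on at least 3 arrays), led by Vim at a mean of 13.49. The summed linear level of the 11 was lower with IBMX/Dex, 36083 to 39324 with scrambled siRNA and 37644 to 38883 with CD24 siRNA against 45015 to 47857 with vehicle, and 2 of the 10 tested, the growth factor receptor genes Pdgfra and Pdgfrb, fell. With scrambled siRNA Pdgfrb fell 3.15-fold (limma adjusted p = 0.00154) and Pdgfra 2.05-fold (limma adjusted p = 0.0185), the second call being lost without vehicle replicate 2 or 3 or scrambled replicate 1 or 3. When same-numbered arrays were blocked, the collagen genes Col1a1, Col1a2 and Col3a1 fell too (log2 differences of -0.45, -0.59 and -0.51, limma adjusted p = 0.0132, 0.00275 and 0.0120), and with CD24 siRNA Col1a2 and Col3a1 did (adjusted p = 0.00666 and 0.00285). The part of this shift in the members' differences was not tested. Markers of the cells from which Fgl2 and Ctla2a were first described were low: of 9 T cell and cytotoxic lymphocyte markers 1 passed, Prf1 at a mean of 7.13, and the summed linear level of the 9 was 454 to 531 with vehicle, 501 to 578 with scrambled siRNA and IBMX/Dex, and 499 to 546 with CD24 siRNA and IBMX/Dex. Of 8 macrophage markers 4 passed, Cd14 at a mean of 8.61, Cd68 at 8.26, Lyz2 at 7.49 and Csf1r at 6.97. Ptprc, the common leukocyte antigen, lay below the filter level. Of 8 endothelial markers 1 passed, Cdh5 at 6.75. Of 7 chondrocyte and synovial markers 3 passed, Sox9 at 10.47, Col2a1 at 7.44 and Comp at 6.51, with Acan below the filter level. Of 5 mature adipocyte markers 1 passed, Fabp4 at 9.60. No marker of these 5 lists passed an adjusted p of 0.05 in limma in either comparison with vehicle without the replicate number as a block. With it, the macrophage markers Cd14 (log2 difference 0.54, adjusted p = 0.0230) and Lyz2 (-0.98, adjusted p = 0.0430) passed with scrambled siRNA, and the chondrocyte marker Sox9 (-0.47, adjusted p = 0.0172) with CD24 siRNA. The block called 2942 and 2831 of all 12630 genes in these 2 comparisons, against 876 and 840 without it. The target of the siRNA, Cd24a, stood at 10.15, 10.16 and 11.72 on the CD24 siRNA arrays of replicates 1, 2 and 3, against 11.19, 11.73 and 11.81 on the scrambled arrays. Vehicle arrays read 8.88, 9.92 and 9.49. Against scrambled siRNA the difference was -0.90 ± 0.43 SE (limma unadjusted p = 0.0638), which did not pass after adjustment, and -1.42 without CD24 siRNA replicate 3. Cd24a stood 4.42-fold above vehicle with scrambled siRNA and 2.37-fold with CD24 siRNA (limma adjusted p = 0.0205 and 0.124). A second probe set of Cd24a read 7.22, 6.68 and 9.08 against 9.28, 8.72 and 9.25. The array labelled CD24 siRNA replicate 3 thus stood close to its scrambled partner, and the members' differences that use it are given with and without it.

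Prg4 had the widest separation between vehicle and stimulated cells. Its log2 level was 7.01, 6.92 and 6.88 on the vehicle arrays of replicates 1, 2 and 3, and 11.09, 11.30 and 11.71 on the scrambled IBMX/Dex arrays. With CD24 siRNA and IBMX/Dex the level was 11.16, 11.21 and 11.53. Every stimulated array thus lay more than 4 log2 units above every vehicle array, and in both stimulated groups replicate 3 was the highest. The group means were 6.94 ± 0.07 (SD, n = 3), 11.37 ± 0.32 (SD, n = 3) and 11.30 ± 0.20 (SD, n = 3). The vehicle arrays spanned 0.13 log2 units, which made Prg4 one of the steadier genes at baseline: 10.8% of the genes tested had a smaller SD there. Between same-numbered arrays the rise was 16.9-fold, 20.8-fold and 28.6-fold with scrambled siRNA, and 17.8-fold, 19.5-fold and 25.2-fold with CD24 siRNA. The order of the 3 replicate numbers was the same in both, which share the vehicle arrays.

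**Figure D1:**
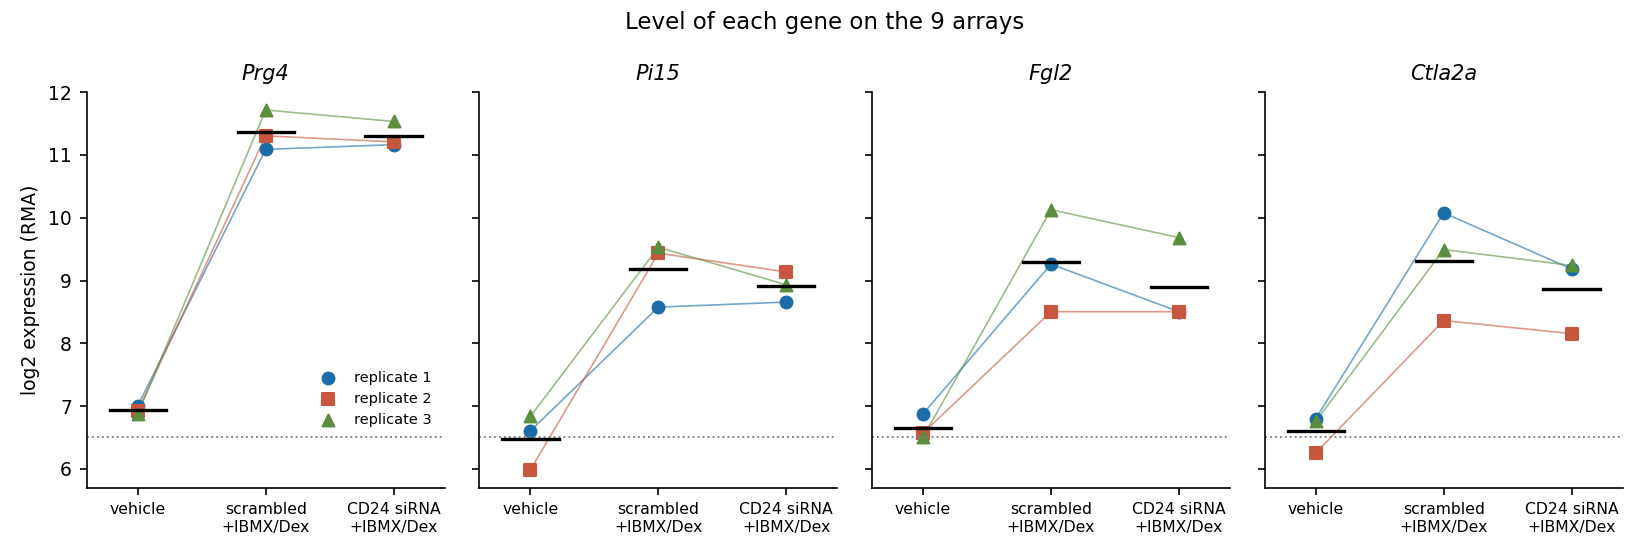
Log2 expression of Prg4, Pi15, Fgl2 and Ctla2a (vertical axis) on each of the 9 arrays, by group (horizontal axis). Symbols are single arrays, thin lines join arrays of the same replicate number, black bars are group means of 3 arrays and the dotted line is the filter level of 6.51. Prg4 lies between 6.88 and 7.01 with vehicle and at 11.09 or above with IBMX/Dex, while Fgl2 and Ctla2a scatter between their stimulated arrays.

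Pi15 had the lowest vehicle mean of the 4 genes and the widest spread between vehicle arrays. Its level was 6.61, 5.99 and 6.84 with vehicle, then 8.58, 9.44 and 9.53 with scrambled siRNA and IBMX/Dex. With CD24 siRNA and IBMX/Dex it was 8.66, 9.14 and 8.93. The groups with and without IBMX/Dex did not overlap, and replicate 1 was the lowest of both stimulated groups. Means were 6.48 ± 0.44 (SD, n = 3), 9.18 ± 0.52 (SD, n = 3) and 8.91 ± 0.24 (SD, n = 3). Since vehicle replicate 2 was the lowest array while the stimulated arrays of that number were not, its same-numbered rise was the largest: 3.92-fold, 10.9-fold and 6.46-fold for replicates 1, 2 and 3 with scrambled siRNA, and 4.14-fold, 8.87-fold and 4.27-fold with CD24 siRNA. Without vehicle replicate 2 the log2 difference of the group means went from 2.70 to 2.46 with scrambled siRNA and from 2.43 to 2.19 with CD24 siRNA.

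Fgl2 varied widely between replicate numbers once cells were stimulated. Its vehicle levels of 6.88, 6.57 and 6.51 became 9.26, 8.50 and 10.13 with scrambled siRNA and IBMX/Dex. The CD24 siRNA arrays with IBMX/Dex read 8.50, 8.50 and 9.68. Stimulated and vehicle arrays did not overlap, and replicate 3 was the highest array of both stimulated groups while it was the lowest of the vehicle group. The means were 6.65 ± 0.20 (SD, n = 3), 9.30 ± 0.81 (SD, n = 3) and 8.90 ± 0.68 (SD, n = 3). The same-numbered rise therefore ran from 3.81-fold in replicate 2 to 12.3-fold in replicate 3 with scrambled siRNA, with 5.21-fold in replicate 1, and was 3.08-fold, 3.81-fold and 9.03-fold with CD24 siRNA. The deposited values of scrambled replicate 2 and CD24 siRNA replicates 1 and 2 were equal to the last digit. Values shared exactly by at least 3 arrays occurred for 9.56% of the genes tested and for none of the other 3 members. RMA ends in a summary by median polish, which can return equal values for several arrays; its part here was not tested.

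Ctla2a showed a spread of the same size with another order of the replicates. The level was 6.80, 6.26 and 6.76 with vehicle. It was 10.08, 8.36 and 9.49 with scrambled siRNA and IBMX/Dex, and 9.18, 8.15 and 9.24 with CD24 siRNA and IBMX/Dex. Replicate 2 was the lowest array in all 3 groups, and no vehicle array reached a stimulated one. The means were 6.60 ± 0.30 (SD, n = 3), 9.31 ± 0.87 (SD, n = 3) and 8.86 ± 0.61 (SD, n = 3). Same-numbered rises were 9.68-fold, 4.31-fold and 6.66-fold with scrambled siRNA, and 5.22-fold, 3.73-fold and 5.59-fold with CD24 siRNA. Within the scrambled group the highest Ctla2a array was 3.28-fold above the lowest, and for Fgl2 it was 3.08-fold, while for Pi15 it was 1.94-fold and for Prg4 1.55-fold. The SD of Ctla2a and of Fgl2 there exceeded that of 98.8% and 98.5% of the genes tested, and the median SD over those genes was 0.16.

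As group differences from the fit over all genes, the rise with scrambled siRNA was 4.43 ± 0.17 SE log2 units for Prg4 (21.6-fold), 2.71 ± 0.43 SE for Ctla2a (6.53-fold), 2.70 ± 0.29 SE for Pi15 (6.51-fold) and 2.64 ± 0.42 SE for Fgl2 (6.25-fold). With CD24 siRNA it was 4.37 ± 0.17 SE for Prg4 (20.6-fold), 2.43 ± 0.29 SE for Pi15 (5.39-fold), 2.26 ± 0.43 SE for Ctla2a (4.77-fold) and 2.24 ± 0.42 SE for Fgl2 (4.74-fold). Among all genes tested, Prg4 ranked first in both comparisons. Ctla2a, Pi15 and Fgl2 ranked 9, 10 and 11 with scrambled siRNA, and 13, 10 and 14 with CD24 siRNA. The differences of these 3 genes lay within each other's standard errors, so their order is within the error. Both comparisons use the same vehicle arrays, and the first of them chose the members, so neither is given a p-value. Over all genes, limma called 6.94% at an adjusted p of 0.05 with scrambled siRNA (3.33% higher, 3.6% lower) and 6.65% with CD24 siRNA (2.92% higher, 3.73% lower). All 4 members passed the filter. Prg4 reached its level on all 3 vehicle arrays, while Pi15, Fgl2 and Ctla2a reached it on 2 of 3 and so passed through their stimulated arrays. When the array labelled CD24 siRNA replicate 3 was left out, the rise with CD24 siRNA was 4.25 for Prg4, 2.42 for Pi15, 1.85 for Fgl2 and 2.06 for Ctla2a.

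**Figure D2:**
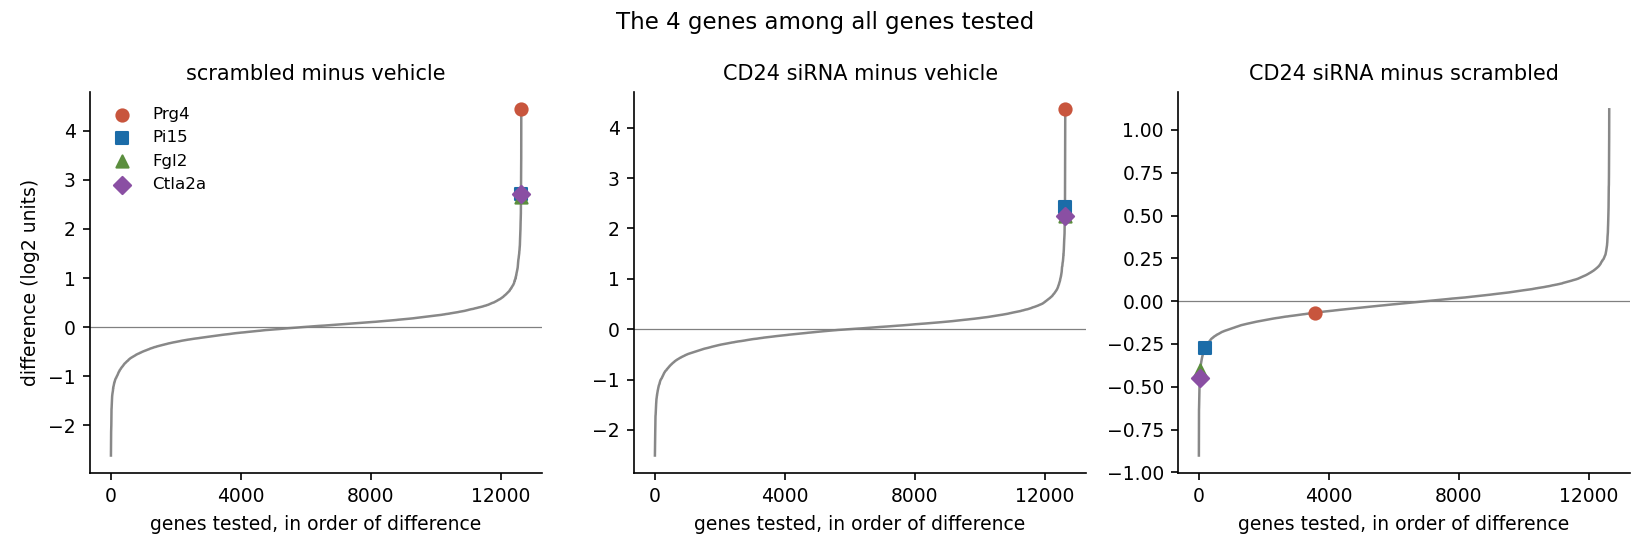
Log2 difference (vertical axis) of the 12630 genes tested, sorted from lowest to highest (horizontal axis, grey line), in the 3 comparisons, with the 4 genes as coloured symbols. Against vehicle they sit at the upper end, Prg4 ranking first; in CD24 siRNA minus scrambled, where the vertical axis is narrower, Prg4 lies at -0.07 and the other 3 near the lower end.

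The study asked whether lowering CD24 alters the response to IBMX/Dex, and for these genes that comparison sets the CD24 siRNA arrays against the scrambled arrays, both stimulated. The difference was -0.07 ± 0.17 SE log2 units for Prg4, with a 95% interval from 0.733-fold to 1.24-fold of the scrambled level. It was -0.27 ± 0.29 SE for Pi15 (0.526-fold to 1.30-fold), -0.40 ± 0.42 SE for Fgl2 (0.392-fold to 1.46-fold) and -0.45 ± 0.43 SE for Ctla2a (0.372-fold to 1.44-fold). None of the 4 passed in limma (adjusted p = 1 for each, with unadjusted p of 0.700, 0.372, 0.366 and 0.323). Nor did any gene of the 12630 (0%), Cd24a, the target of the siRNA, included. At an unadjusted p under 0.05 the count over all genes was 30, and 219 with the replicate number as a block, which gave no call either. Evenly spread p-values would put a share of 0.05 of the 12630 genes there, more than either count. The p-values of this comparison thus ran high in both fits, for reasons not tested. The missing calls therefore do not show that the siRNA had no effect. The intervals still allow a lower level of Pi15, Fgl2 and Ctla2a by a sizeable factor, so a missing call does not show that the levels were equal. The scrambled arrays also took part in choosing the members, which leans this comparison towards lower values with CD24 siRNA.

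By replicate number the siRNA differences were small beside the rise itself. Prg4 differed by 0.08, -0.10 and -0.18 log2 units in replicates 1, 2 and 3, and Pi15 by 0.08, -0.30 and -0.60. Fgl2 differed by -0.76 and -0.44 in replicates 1 and 3, and by exactly 0 in replicate 2, where the deposited values were equal. Ctla2a was lower on all 3 CD24 siRNA arrays, by -0.89, -0.21 and -0.25. With the block, which takes out what same-numbered arrays share, the 95% interval was -0.37 to 0.24 for Prg4, -0.81 to 0.26 for Pi15 and -1.04 to 0.24 for Fgl2. For Ctla2a the block narrowed the 95% interval to -0.87 to -0.03 (unadjusted p = 0.0377, limma adjusted p = 1). The largest of its differences fell on replicate 1, and without scrambled replicate 1 the group difference was -0.07. Leaving out the array labelled CD24 siRNA replicate 3 gave -0.18 for Prg4, -0.28 for Pi15, -0.79 for Fgl2 and -0.64 for Ctla2a (adjusted p = 1 for each in limma). Without scrambled replicate 3 the sign turned for Prg4 (0.11) and Fgl2 (0.015), and for Prg4 also without CD24 siRNA replicate 1.

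**Figure D3:**
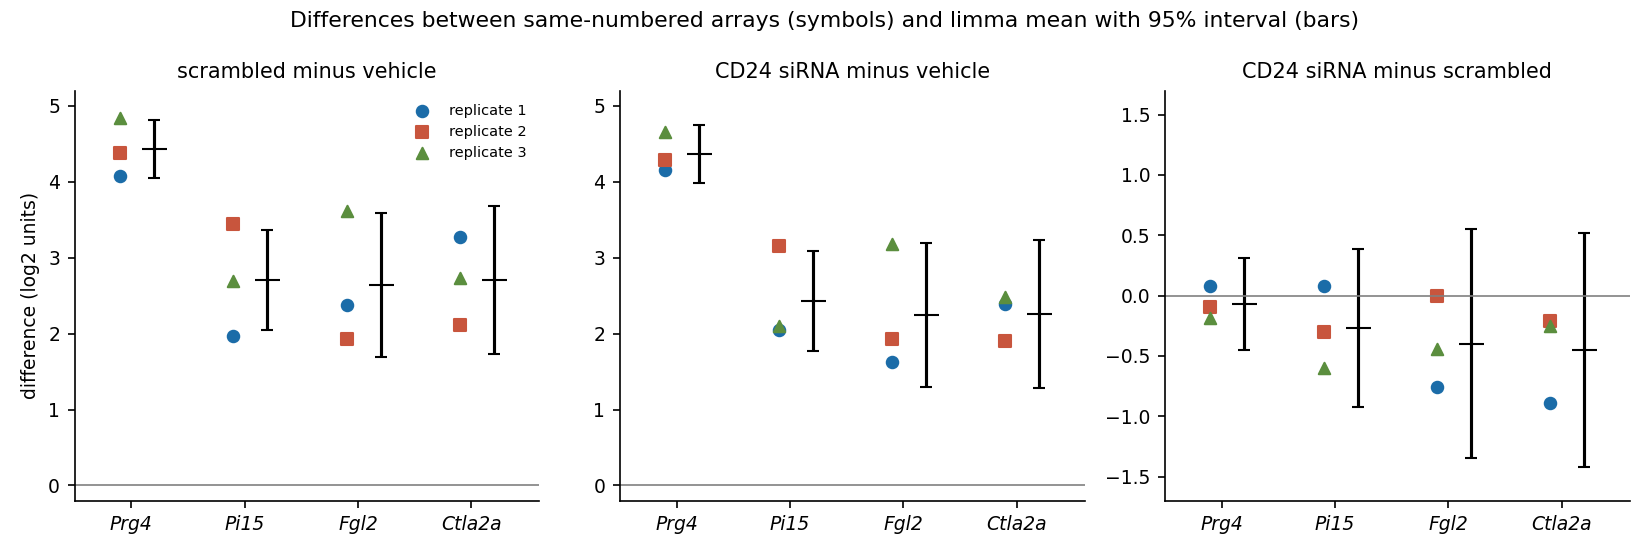
Log2 differences of the 4 genes in 3 comparisons (panels); symbols are the differences between arrays of the same replicate number, and black bars are the group difference from limma with its 95% interval. All 12 differences of each comparison with vehicle are above 1.6. The intervals come from the fit without the replicate block. In CD24 siRNA minus scrambled, on an axis of its own scale, all 4 include 0, while with the block that of Ctla2a runs from -0.87 to -0.03.

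The close copy Ctla2b, which lies beside Ctla2a on chromosome 13 with 1 other protein-coding gene between them, was measured by a probe set of its own. It read 5.96, 5.66 and 6.59 with vehicle, 7.13, 6.02 and 6.63 with scrambled siRNA and IBMX/Dex, and 6.74, 6.31 and 6.66 with CD24 siRNA and IBMX/Dex. The groups overlapped, and replicate 1 showed the largest difference. The group difference from vehicle was 0.52 ± 0.31 SE with scrambled siRNA (limma adjusted p = 0.359) and 0.50 ± 0.31 SE with CD24 siRNA (limma adjusted p = 0.387), or 0.45 without CD24 siRNA replicate 3. How far either probe set also binds RNA of the other copy was not tested.

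**Figure D4:**
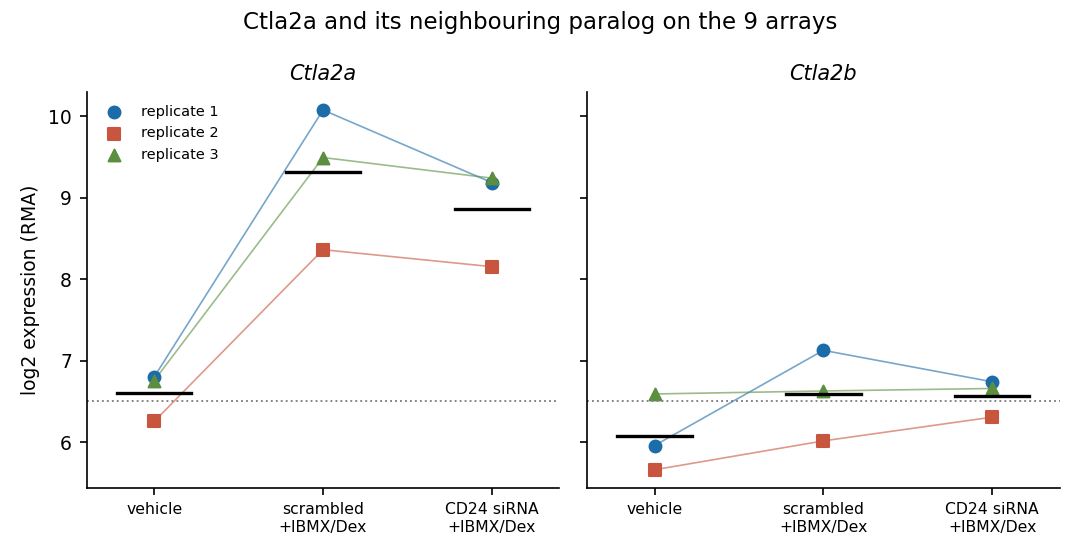
Log2 expression (vertical axis) of Ctla2a and Ctla2b on the 9 arrays by group (horizontal axis); symbols are arrays, thin lines join replicate numbers, black bars are means of 3 arrays and the dotted line is the filter level of 6.51. Ctla2a lies at 8.15 or above on every stimulated array, while Ctla2b stays between 5.66 and 7.13 in all groups.

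The stretches just before the start of transcription were read from RefSeq (GRCm38.p6) to set Ctla2a beside its close copy, with Fgl2 as the other member that the sequence table holds. Of the 4 members 2 matched the table, Fgl2 and Ctla2a. Each sequence below holds the 250 bases before the outermost annotated start, 5′ to 3′ on the gene's strand: Fgl2 at chr5:21372423-21372672 on the plus strand, Ctla2a at chr13:60936626-60936875 and Ctla2b at chr13:60897448-60897697, both on the minus strand. Capitals mark matches, on either strand, to short motifs of factors linked to cAMP, glucocorticoids or early response genes and to the TATA box.
Fgl2: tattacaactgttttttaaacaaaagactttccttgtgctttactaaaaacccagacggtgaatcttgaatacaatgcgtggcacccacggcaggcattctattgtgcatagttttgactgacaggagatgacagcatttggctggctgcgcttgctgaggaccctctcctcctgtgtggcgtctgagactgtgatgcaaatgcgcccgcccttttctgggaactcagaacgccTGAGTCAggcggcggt
Ctla2a: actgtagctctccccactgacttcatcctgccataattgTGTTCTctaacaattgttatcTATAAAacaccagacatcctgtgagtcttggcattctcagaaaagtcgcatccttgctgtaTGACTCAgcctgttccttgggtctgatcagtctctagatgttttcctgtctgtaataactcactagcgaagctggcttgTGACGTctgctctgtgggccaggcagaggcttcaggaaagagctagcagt
Ctla2b: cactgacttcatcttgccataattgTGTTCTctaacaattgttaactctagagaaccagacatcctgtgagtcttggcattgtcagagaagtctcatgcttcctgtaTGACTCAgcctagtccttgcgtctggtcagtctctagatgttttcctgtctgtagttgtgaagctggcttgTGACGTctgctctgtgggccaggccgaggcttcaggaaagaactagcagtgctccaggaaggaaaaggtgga
In the Ctla2a stretch the capitals are, in order, TGTTCT (the reverse complement of AGAACA, 1 arm of the glucocorticoid response element), TATAAA (the TATA box), TGACTCA (an AP-1 site) and TGACGT (the shorter core of the cAMP response element). They begin 211, 190, 129 and 50 bases before the start. The name TATA box is given for the letters only, not for their position. Before the second annotated start of Ctla2a, TATAAA begins at 249 bases. Ctla2b holds the same motifs except TATAAA, at 225, 143 and 72 bases before its own start. Aligned with each other, these stretches of Ctla2a and Ctla2b matched at 209 of 228 paired bases (91.7%). The Fgl2 stretch holds 1 match, TGAGTCA, the reverse complement of the AP-1 letters, 16 bases before the start. Among 32851 such stretches of 27025 genes, 16.1% hold AGAACA, 12.4% TATAAA, 6.47% TGACGT and 4.46% TGACTCA on either strand. The other motifs searched had no match in the 3 stretches: TGACGTCA, which contains TGACGT (1.55% of all stretches), the whole glucocorticoid response element, AGAACA and TGTTCT with 3 bases of any kind between them (0.00913%), AAAGGTCA of the NR4A receptors (1.34%) and TTGCGCAA of C/EBP factors (0.164%). A match describes letters only and shows no binding.

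Few genes next to the members could be tested. Of the 3 protein-coding genes on each side of each member, 24 in all, 9 were tested. With scrambled siRNA 2 of the 9 rose in limma, beside 3.33% of all genes: Fam185a, the neighbour of Fgl2 (1.97-fold, adjusted p = 0.00289), and Ivns1abp, the third gene beyond Prg4 (2.25-fold, adjusted p = 0.00640). Both rose with CD24 siRNA too, beside 2.92% of all genes, and there Gsap, 2 genes before Fgl2, fell (1.80-fold, adjusted p = 0.0374), beside 3.73%. The Gsap call held only in the fits without vehicle replicate 1 or scrambled replicate 1 among the 9 that left out 1 array, while those of Fam185a and Ivns1abp held in all 9. With the block Gsap passed with scrambled siRNA as well (adjusted p = 0.0219). These were looked up after the members' values were seen. Fgl2 lies within the span of another gene, Ccdc146, whose own probe set stayed between 4.78 and 5.28 on all arrays, below the filter level. Prg4 overlaps Tpr and Pi15 overlaps a long non-coding RNA gene, neither of which was measured by a named probe set here. Crispld1, the CAP gene beside Pi15, stayed between 5.53 and 6.12.

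To see which genes ran most like each member, profiles were centred on the vehicle mean and compared over the 9 arrays by the root mean square of their differences, in log2 units. This measure uses the comparison that chose the members and is a description. Closest to Prg4 were Ramp3 (0.71), whose product modifies receptors of the calcitonin family, Rgs2 (0.84), a regulator of G protein signalling, and Tll1 (1.03), a tolloid-like protease, all with smaller rises. Closest to Pi15 were the cytokine gene Il11 (0.25), Gfpt2 (0.39), which makes the first enzyme of hexosamine synthesis, and Uap1 (0.44), which acts later in that synthesis. For Fgl2 they were Gfpt2 (0.40), the phosphatase gene Dusp1 (0.41) and Orm2 (0.41), an acute phase protein. For Ctla2a they were Baiap2l1 (0.47), a gene of a membrane-bending adaptor, Gfpt2 (0.47) and Fgl2 itself (0.48). Il11 shared with Pi15 its lowest vehicle value in replicate 2 (7.35, 6.62 and 7.47), and read 9.63, 10.00 and 9.68 with scrambled siRNA. Vehicle replicate 2 was also the lowest for Ctla2a, Ramp3, Rgs2, Gfpt2, Uap1, Dusp1 and Baiap2l1, so this was not particular to the pair. Orm2 shared with Fgl2 a highest stimulated value in replicate 3 in both groups (8.85 and 8.83), as did Prg4, Tll1, Gfpt2, Uap1, Dusp1 and Baiap2l1. Fgl2 and Ctla2a were at distance 0.48 from each other, Fgl2 and Pi15 at 0.60, and Pi15 and Ctla2a at 0.73, while Prg4 was at 1.53 to 1.67 from the other members, its larger rise setting it apart.

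Relatives and partners of the members were taken from 5 lists, 87 genes without the members, of which 47 were tested, 31 lay below the filter and 9 were not named on a probe set of their own. With scrambled siRNA 3 rose and 7 fell in limma (21.3% of those tested, beside 6.94% of all genes), and with CD24 siRNA again 3 rose and 7 fell (beside 6.65%). The median difference of the 47 was -0.05 and -0.07 log2 units, beside 0.02 and 0.02 for all genes. With the replicate number as a block 5 rose and 10 fell with scrambled siRNA, and 4 rose and 11 fell with CD24 siRNA. The block also called far more of all genes, 2942 and 2831 of 12630, so 6.94% and 6.65% are no measure for these counts. Between CD24 siRNA and scrambled siRNA none of the 47 passed. When CD24 siRNA replicate 3 was left out, the differences from vehicle that still passed with CD24 siRNA were those of Thbd (1.90), Vcan (1.04), Tlr4 (-1.22), Cemip (-1.41), Angptl4 (-1.78) and F3 (-2.25).

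Within the protein families of Pi15, Fgl2 and Ctla2a no tested relative rose in the fit without the block. Over all genes 3.33% rose with scrambled siRNA and 2.92% with CD24 siRNA, and lists this short may hold no rise at such a share. Among the CAP genes 5 were tested beside Pi15 and 1 changed in each comparison with vehicle: Glipr2, a Golgi-associated family member, fell 1.57-fold with scrambled siRNA (log2 difference -0.65 ± 0.13 SE, limma adjusted p = 0.0221). It did not pass without vehicle replicate 3 or scrambled replicate 1 or 3. With CD24 siRNA Glipr2 fell 1.51-fold (limma adjusted p = 0.0315), a call lost without vehicle replicate 1 or 3, scrambled replicate 3 or any 1 of the CD24 siRNA arrays. Crispld2 and R3hdml had differences of 0.22 and 0.16, without passing. Of 10 fibrinogen-related genes tested beside Fgl2, the lipoprotein lipase inhibitor gene Angptl4 fell 2.48-fold with scrambled siRNA and 3.29-fold with CD24 siRNA (adjusted p = 0.00699 and 0.00228). The angiopoietin genes Angpt1 (0.67) and Angpt4 (-0.84), whose products bind the receptor Tie2, did not pass there (adjusted p = 0.120 and 0.170), but passed with the block (adjusted p = 0.00962 and 0.00681). The fibrinogen chain genes Fga, Fgb and Fgg and the paralog Fgl1 lay below the filter.

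Among 11 cysteine cathepsins and inhibitors tested beside Ctla2a, 10 had negative differences from vehicle with scrambled siRNA, the exception being Ctla2b. Over all genes tested 53.4% of the differences were positive. Some of the 10 were near 0 (-0.02, -0.05 and -0.07). Only Ctso, a lysosomal cathepsin, passed, with a fall of 1.51-fold (adjusted p = 0.0329 in limma). That call held in 1 of the 9 fits that left out 1 array, the one without scrambled replicate 1. With CD24 siRNA Ctso fell 1.53-fold (adjusted p = 0.0294), and the call was lost on leaving out any vehicle or CD24 siRNA array. Ctsl, whose propeptide Ctla2a resembles, had a difference of -0.17 (adjusted p = 0.675) and Ctsz one of -0.22 (adjusted p = 0.294). With the block Lgmn, which makes the cysteine protease legumain, also fell with CD24 siRNA (-0.52, adjusted p = 0.00892, and 0.180 without the block). The median of the list was -0.15 with scrambled siRNA and -0.11 with CD24 siRNA, beside 0.02 and 0.02 for all genes.

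The genes of lubrication and hyaluronan, the setting in which Prg4 is known, split. Of 14 tested, 2 rose and 1 fell in both comparisons with vehicle, beside 6.94% and 6.65% of all genes called. With the block 3 rose and 3 fell with scrambled siRNA and 2 rose and 3 fell with CD24 siRNA. It called 2942 and 2831 of all 12630 genes. The genes added by the block were Has2, a hyaluronan synthase (-0.91 and -0.97, block adjusted p = 0.00541 and 0.00420), Enpp3, an ectonucleotidase (-0.66 and -0.57, block adjusted p = 0.0105 and 0.0207), and, with scrambled siRNA, Cd44. Vcan, which makes the hyaluronan-binding proteoglycan versican, read 11.59, 11.89 and 11.75 with vehicle and 12.65, 12.90 and 12.90 with scrambled siRNA and IBMX/Dex, a rise of 2.10-fold (adjusted p = 0.00154). Tnfaip6, whose product links hyaluronan to other matrix proteins, rose 2.29-fold with scrambled siRNA (adjusted p = 0.00548) and 1.84-fold with CD24 siRNA (adjusted p = 0.0201). The second of these calls was lost without vehicle replicate 3 or any 1 of the CD24 siRNA arrays. Vehicle arrays of Tnfaip6 read 6.40, 6.65 and 6.21, of which 1 reached the filter level, so it was tested through its stimulated arrays. Cemip, needed for the breakdown of hyaluronan, fell 2.46-fold with scrambled siRNA and 2.64-fold with CD24 siRNA (adjusted p = 0.00282 and 0.00219). Vehicle arrays of Cemip read 7.34, 7.95 and 7.57. All its stimulated arrays lay below the filter level, at 6.12 to 6.46, so it was tested through its vehicle arrays. Groups with and without IBMX/Dex did not overlap for any of these 3 genes. They were named because they passed in limma, which favours such separation, and the share over all genes is not given here.

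The list of receptors and substrates of the member proteins also held other coagulation genes, such as Thbd and F3. It gave the largest share of calls, 4 of 8 tested in each comparison with vehicle, beside 6.94% and 6.65% of all genes. These 4 were Thbd, F3, Tlr2 and Tlr4, so the share is not one of receptors and substrates alone. The Prg4 receptor genes Tlr2 and Tlr4 fell 2.13-fold and 2.47-fold with scrambled siRNA (limma adjusted p = 0.0191 and 0.00857), and 2.01-fold and 2.49-fold with CD24 siRNA (adjusted p = 0.0270 and 0.00843). The Tlr2 call was lost without vehicle replicate 2 or scrambled replicate 1 or 3 in the first comparison, and without vehicle replicate 1 or 2 or any CD24 siRNA array in the second. Vehicle arrays of Tlr4 read 7.26, 7.41 and 7.98. All its stimulated arrays lay below the filter level, at 5.96 to 6.45, so Tlr4 was tested through its vehicle arrays. Cd44 had a difference of 0.42 with scrambled siRNA (adjusted p = 0.0969, and 0.0190 with the block). Of the coagulation genes listed for Fgl2, Thbd, which makes thrombomodulin, an inhibitor of thrombin's clotting activity, read 10.81, 9.39 and 10.25 with vehicle and 12.51, 11.99 and 12.45 with scrambled siRNA. It rose 4.50-fold (adjusted p = 0.00577), and 3.98-fold with CD24 siRNA (adjusted p = 0.00814). F3, the gene of tissue factor, which starts clotting, read 11.52, 11.35 and 10.99 with vehicle and 9.87, 8.79 and 8.26 with scrambled siRNA. It fell 4.98-fold (adjusted p = 0.0110), and 5.68-fold with CD24 siRNA (adjusted p = 0.00814). Prothrombin (F2), the substrate of the Fgl2 protease, and the Fc receptor genes Fcgr2b and Fcgr3 lay below the filter.

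**Figure D5:**
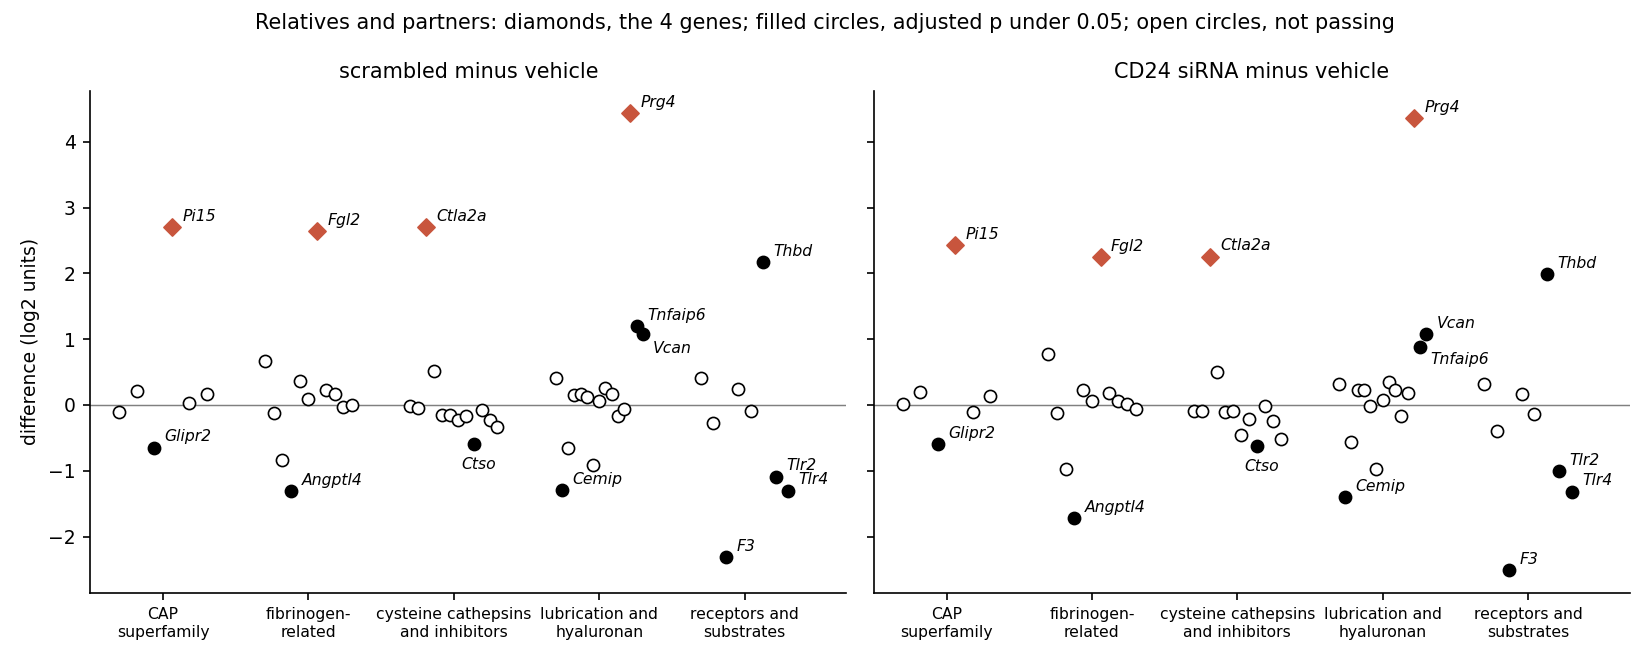
Log2 difference from vehicle (vertical axis) of the relatives and partners tested, by list (horizontal axis), with scrambled siRNA and IBMX/Dex (left) and CD24 siRNA and IBMX/Dex (right). Diamonds are the 4 genes, filled circles passed an adjusted p of 0.05 in limma and open circles did not; Thbd at 2.17 and F3 at -2.32 with scrambled siRNA are the farthest of the circles.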

How the data were processed

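Expression was measured on 9 single-colour oligonucleotide arrays, 1 per sample. The authors deposited log2 values per probe set, made with RMA and the oligo package per the submitters' processing notes; neither their versions nor the set of arrays normalized together is given in the sources used here. RMA evens out array distributions and compresses differences of dim probe sets. The number of arrays limits the precision: the median 95% interval of a difference from vehicle extended 0.34 log2 units to either side.

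Values were used as deposited. Of 41345 probe sets, 23521 had 1 gene symbol in the platform annotation, 1814 had several and 16010 were not named here. Each of 22180 genes was represented by its brightest probe set and tested where 3 or more arrays were at or above 6.51, the median over the whole table (12630 genes). Differences came from limma 3.58.1 (R 4.3.3; lmFit, eBayes, 1 mean per group, all 9 arrays), two-sided, with Benjamini-Hochberg adjustment over all genes tested and a threshold of 0.05. The fit was tested on simulated data. Titles gave each sample's group and number. Deviations from group means correlated at 0.377 to 0.732 (over the genes tested) between arrays of 1 number and at most at 0.116 between arrays of different numbers. The numbers were therefore treated as pairing the arrays, with the number as a block in an alternative fit. Standard errors, intervals and calls come from the fit without the block unless the block is named, and so do not take this pairing into account. Promoter stretches were aligned with Biopython 1.88.

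The members and lists were chosen with earlier results of these data known. Named genes are the members, Cd24a, of each list the genes that passed in any comparison (filled up to 3 by the smallest p with scrambled siRNA), and the 3 genes closest in profile to each member; others named (genomic neighbours, markers, Ctsl, Cd44, Has2, Enpp3, Lgmn and genes below the filter) were chosen after their values were seen. Alternatives were the block, fits without 1 array or with 2 groups only, other filters (none, or a level of 8.07, the 75th percentile), array medians set equal, quantile normalization, averaged probe sets, and limma's intensity trend with robust fitting. The block without CD24 siRNA replicate 3 was added after seeing the data.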

Additional observations from a re-analysis of the deposited data

How the results depend on the processing

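The rises of the 4 genes over vehicle moved by less than the spread of their same-numbered differences under every alternative run, except that of Ctla2a with CD24 siRNA on leaving out CD24 siRNA replicate 2 (2.06 to 2.61 over the fits without 1 array, 2.26 with all). In CD24 siRNA minus scrambled no member passed under any alternative (adjusted p of 1.00 in each). Leaving out 1 array at a time gave -0.21 to 0.11 for Prg4, -0.57 to -0.10 for Pi15, -0.80 to 0.015 for Fgl2 and -0.93 to -0.07 for Ctla2a, and for Ctla2b -0.31 to 0.25. With the replicate block and without CD24 siRNA replicate 3 the differences were -0.11, -0.11, -0.62 and -0.56 for the members in that order, and 0.074 for Ctla2b. Genes called numbered 876 with scrambled siRNA and 840 with CD24 siRNA against vehicle. They became 2942 and 2831 with the replicate block, 389 and 461 in fits of 2 groups, and 2924 and 1763 when the block was combined with leaving out CD24 siRNA replicate 3, which takes an array from the second comparison. Leaving out 1 array gave 313 to 852 and 321 to 857. Of the relatives, 10 were called against vehicle with CD24 siRNA, and 6 to 10 without 1 array, 6 being the count without any 1 of the CD24 siRNA arrays. In fits of 2 groups Glipr2, Ctso and Tlr2 did not pass with scrambled siRNA (adjusted p = 0.0682, 0.0960 and 0.0535 in limma), nor Glipr2 with CD24 siRNA (adjusted p = 0.0517). Among the members, Cd24a and the genes named from the lists, the replicate block added calls for Angpt1, Angpt4, Has2 and Enpp3 in both comparisons with vehicle, Lgmn with CD24 siRNA, Cd44 with scrambled siRNA (its value with CD24 siRNA was 0.0559), and Cd24a with CD24 siRNA against vehicle (adjusted p = 0.124 without it and 0.0143 with it, or 0.0350 with it but without CD24 siRNA replicate 3). The causes of these changes were not tested.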
